A study of Mus musculus with 24 samples.

Results

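Genes of ribosome biogenesis and RNA polymerase I were followed in human myeloma tumours grown in mice and treated with filanesib, pomalidomide, dexamethasone or their combinations. They were chosen by symbol: names that begin with NOP, UTP, RRP or NOL and a digit (or NOLC), names that begin with POLR1, and NCL, FBL, BOP1, MRTO4, LYAR, WDR12, WDR43, DDX21 and MYBBP1A. This gave 37 of the 14884 named genes on the array. Of the 37, 4 were caught by name only: RRP7BP is a pseudogene of RRP7A, and NOL4, NOL4L and the divergent transcript NOL4L-DT have no established role in making ribosomes. The largest RNA polymerase I subunits, NOP56, UTP20 and RRP9 carried no symbol in the probe table and were not analysed here.

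Ribosomes are built in the nucleolus. RNA polymerase I transcribes the ribosomal RNA precursor, small nucleolar ribonucleoproteins guide its chemical modification, and large sets of assembly factors fold and cut it into the small and the large subunit. Plasma cells and myeloma cells secrete much protein and depend on a high output of ribosomes, and many of these genes are known targets of the transcription factor MYC.

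MM.1S is a human multiple myeloma line. Its cells were placed with Matrigel under the skin of CB17-SCID mice, which lack mature B and T cells, and RNA of the resulting plasmacytomas was hybridised to an Affymetrix array. Filanesib inhibits the mitotic kinesin KSP, pomalidomide is an immunomodulatory drug that acts through cereblon, and dexamethasone is a glucocorticoid. All drugs were given intraperitoneally for 2 days. The 8 groups of 3 arrays each were the triple combination of filanesib, pomalidomide and dexamethasone, pomalidomide with dexamethasone, filanesib with pomalidomide, filanesib with dexamethasone, pomalidomide alone, dexamethasone alone, filanesib alone, and control, which received vehicle. The doses were 10 mg/kg filanesib, 8 mg/kg pomalidomide and 0.5 mg/kg dexamethasone in every group that received the drug. All groups therefore shared a single cell line, host strain and implantation site. The labels give the mouse as organism, but the probes are for human genes, so signal comes from the implanted cells plus whatever host RNA bound the same probes. Whether each array had an animal of its own is not spelled out in the labels, and the p-values then cover no more than the spread between the arrays of a group, which may be technical.

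Every value below is a log2 expression level or a difference of such levels, and 1 unit is a doubling. Quantile normalisation, part of the deposited values, forces the arrays towards 1 distribution and hides a shift common to most of the transcriptome. Of the 8 plasma cell markers, 6 were measured, at mean log2 levels of 9.25 (SLAMF7) to 11.06 (MZB1). The fibroblast markers DCN and LUM averaged 2.32 each, the endothelial markers measured averaged 2.85 to 3.97, and the adipocyte markers PLIN1 and LEP averaged 4.55 and 3.49. Correlations between arrays ran from 0.951 to 0.990 over all probe sets of the array, with or without a gene symbol. In bulk RNA of this kind, fewer cells of a type and less RNA per cell cannot be told apart.

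The genes were well expressed: 34 of the 37 had a mean log2 level at or above the median of all named genes, 4.78. The mean level was 9.90 for the box C/D core protein NOP58, 9.85 for the methyltransferase FBL (fibrillarin) and 9.20 for the RNA helicase DDX21, each on its own probe set, so these levels do not rank the genes. NOL4, at 3.09, was among the 3 genes under that median, with NOL4L at 4.39 and NOL4L-DT at 4.34.

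One array stood apart from all others for these genes. In replicate 3 of the pomalidomide-alone group the median of the 37 genes lay 0.65 below the control mean, while it lay 0.11 and 0.09 below in replicates 1 and 2 of that group. In the other 21 arrays the median lay between -0.13 and 0.17. In replicate 3 of pomalidomide alone, 32 of the 37 genes were below all 3 control arrays, against 17 and 16 in replicates 1 and 2. These counts only compare arrays, as the share of all genes below all controls was not computed. The deepest single differences in replicate 3 were -1.51 for LYAR, -1.32 for NOP14, -1.09 for RRP12, -1.05 for RRP1B and -1.01 for NOL8. The array was also the most scattered of the series over all genes, with a residual SD of 0.288, followed by replicate 1 of pomalidomide alone with 0.232. Of all named genes, 8.32% lay further below control in that array than the median of the 37, and 15% of the genes at or above the median level did. Genes at or above the median level had a median of -0.22 in it, ribosomal protein genes 0.04 and DNA replication genes -0.83. Several of the results that use this array are repeated without it beside them.

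**Figure D1:**
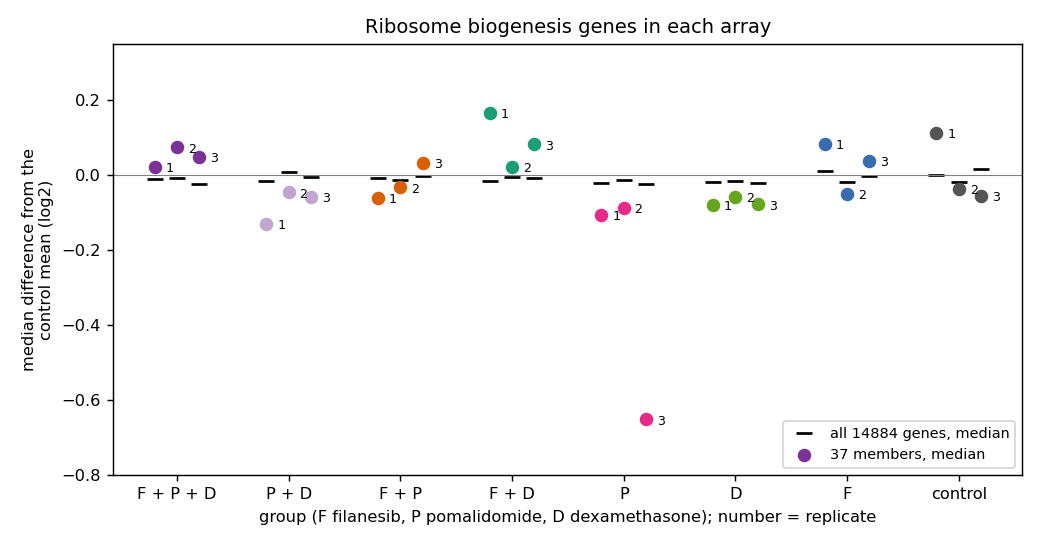
Median log2 difference of the 37 genes from the control mean in each of the 24 arrays (points, numbered by replicate), with the median of all 14884 genes in the same array (bars). All arrays lie between -0.13 and 0.17 except replicate 3 of pomalidomide alone, at -0.65.

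**Figure D2:**
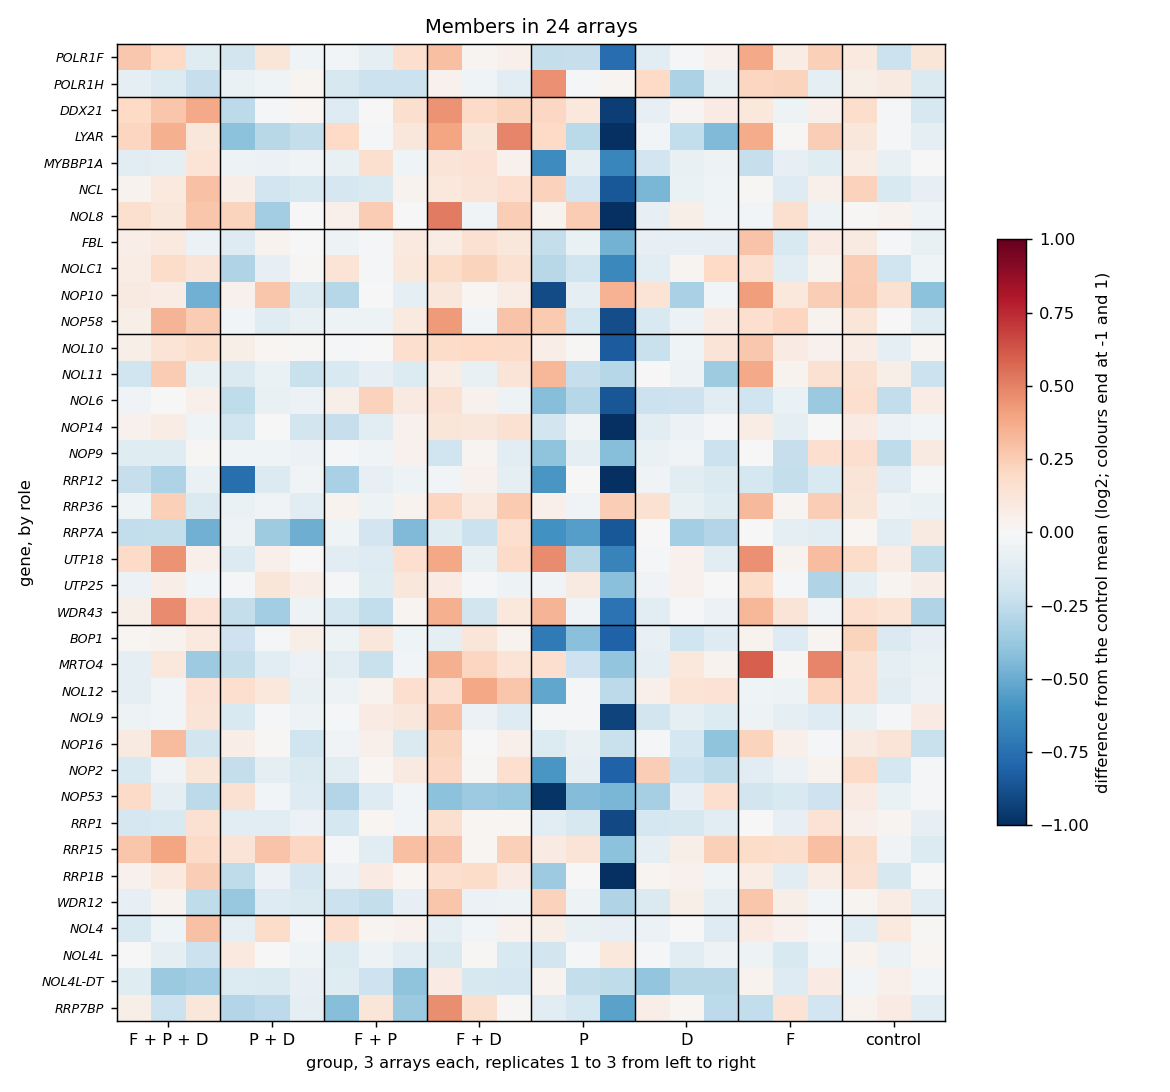
Log2 difference from the control mean for each of the 37 genes (rows, ordered by role with black lines between roles) in each array (columns, 3 per group; colours end at -1 and 1). The column of pomalidomide-alone replicate 3 is blue in nearly all rows, and the last 4 rows are the genes caught by name only.

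The first question was what filanesib did to these genes when averaged over the 4 settings in which it was added: no other drug, pomalidomide, dexamethasone, or both. LYAR, a nucleolar zinc-finger protein tied to ribosomal RNA transcription and processing, rose, and it was the only one of the 37 to pass the test. Most of the other genes shifted the same way by small amounts that did not pass singly: 33 of 37 differences were positive with a median of 0.15, against a median of -0.00 and 49.2% positive over all genes and of 0.03 and 59.8% over the genes at or above the median level. The differences ran from -0.09 for POLR1H to 0.49 for LYAR. Their median was 0.12 without pomalidomide replicate 3.

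LYAR had log2 levels of 5.74, 5.88 and 5.64 with the triple combination, against 5.11, 5.25 and 5.29 with pomalidomide and dexamethasone. It had 5.92, 5.65 and 6.01 with filanesib and dexamethasone, against 5.50, 5.27 and 5.08 with dexamethasone. In both of these pairs every array with filanesib was above every array without it. With filanesib and pomalidomide LYAR had 5.72, 5.51 and 5.64, against 5.73, 5.26 and 4.02 with pomalidomide alone. With filanesib alone it had 5.89, 5.53 and 5.77, against 5.64, 5.51 and 5.43 in controls. In these pairs the groups overlapped, and the level of 4.02 in pomalidomide replicate 3 was the lowest of all 24. Over the 12 arrays with filanesib LYAR ranged from 5.51 to 6.01 with a median of 5.73, and over the 12 without it from 4.02 to 5.73 with a median of 5.28. The average difference was 0.49 ± 0.12 (SE), 1.40-fold, with an adjusted p of 0.0462 (limma, Benjamini-Hochberg over all genes). By setting the difference was 0.21 with no other drug, 0.62 beside pomalidomide, 0.58 beside dexamethasone and 0.53 beside both.

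The call for LYAR was close to the threshold. It was kept when any of the 3 pomalidomide-alone arrays, filanesib replicate 2, dexamethasone replicate 1 or filanesib with dexamethasone replicate 2 was left out, and lost when any of the other 18 arrays was, with adjusted p up to 0.101 (limma) and a difference of 0.36 to 0.58. Without pomalidomide replicates 1 and 3 together, a choice made after the data were seen, it was 0.42 with an adjusted p of 0.00226 (limma). After further quantile normalisation it was 0.47 with an adjusted p of 0.0796 (limma).

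Among all named genes 1.25% were called higher with filanesib and 0.148% lower. Of the 37, 15 were higher and none lower at an unadjusted p under 0.05, while 7.31% of all genes were higher and 4.4% lower. The next smallest p belonged to BOP1, which with WDR12 forms a complex needed for the large subunit, at 0.22 ± 0.06 and an adjusted p of 0.056 (limma).

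Most roles shared the direction. All 5 nucleolar proteins with several tasks were positive, with a median of 0.22. They were LYAR, DDX21 at 0.23 ± 0.09, NOL8, NCL (nucleolin) at 0.18 ± 0.09 and MYBBP1A, a Myb-binding nucleolar protein, at 0.14 ± 0.06. The 4 small nucleolar ribonucleoprotein genes had a median of 0.19: NOP58 at 0.24 ± 0.09, the chaperone NOLC1 at 0.22 ± 0.06, FBL at 0.15 ± 0.06 and the H/ACA protein NOP10 at 0.08. The 11 small subunit factors were all positive, between 0.00 (UTP25) and 0.21 (UTP18), among them NOL6 at 0.20 ± 0.07, and 10 of the 11 large subunit factors were positive, up to 0.23 (RRP1B), among them the RNA methyltransferase NOP2 at 0.20 ± 0.08. The exception was NOP53 at -0.02. The 2 polymerase I subunits among the 37 differed in sign: POLR1F was 0.24 ± 0.07 and POLR1H was -0.09 ± 0.07, the lowest of the 37. The 4 genes caught by name only had a median of 0.02. Other genes were higher as well. All 16 DNA replication genes measured were positive with filanesib on average, with a median of 0.21, and GINS1, CDC6 and MCM10 rose (0.50 ± 0.07, 0.43 ± 0.09 and 0.29 ± 0.07, with adjusted p of 0.000452, 0.0113 and 0.0479 in limma). Without pomalidomide replicate 3 GINS1 and CDC6 were called and the median was 0.18. Whether the 37 genes moved with them was not tested.

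By setting, the median difference of the 37 genes with filanesib was 0.03 with no other drug (22 positive), 0.26 beside pomalidomide (31 positive), 0.17 beside dexamethasone (35 positive) and 0.11 beside both (28 positive). The second of these sets filanesib with pomalidomide against the pomalidomide-alone group, which holds the array that stood apart. Over the other 3 settings the median was 0.11, with 32 of 37 positive, against -0.01 and 47.5% over all genes. Of the 37 genes, 16 were higher with filanesib in all 4 settings, as were 10.5% of all genes. These settings share no array with each other.

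**Figure D3:**
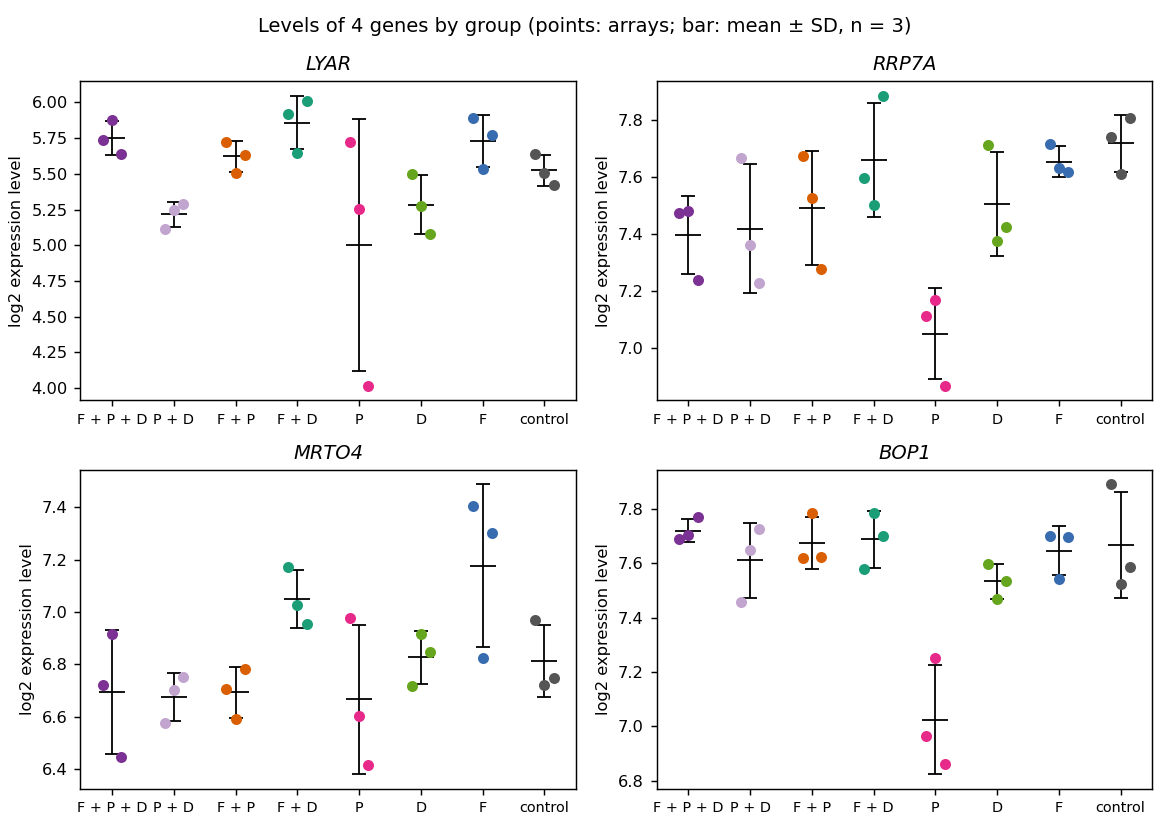
Log2 levels of LYAR, RRP7A, MRTO4 and BOP1 in the 8 groups (points are arrays; bars are the mean ± SD, n = 3; F filanesib, P pomalidomide, D dexamethasone). The mean of LYAR is higher in each group with F than in the group that differs from it only by F, and BOP1 is low in the pomalidomide-alone group, at 6.86 to 7.25.

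The same average was taken for pomalidomide. RRP7A, a component of the small subunit processome, and MRTO4, a large subunit assembly factor that holds the place of the ribosomal stalk protein, fell. Of the 37 differences 34 were negative with a median of -0.10, against -0.01 and 47.5% positive over all genes and -0.02 and 41.3% over the genes at or above the median level. The median of the 37 was -0.07 without pomalidomide replicate 3. Among all named genes 2.65% were called lower and 2.21% higher.

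RRP7A had log2 levels of 7.11, 7.17 and 6.87 with pomalidomide alone, against 7.74, 7.61 and 7.81 in controls, and here the groups were far apart. It had 7.67, 7.53 and 7.28 with filanesib and pomalidomide, against 7.71, 7.63 and 7.62 with filanesib. It had 7.47, 7.48 and 7.24 with the triple combination, against 7.60, 7.50 and 7.88 with filanesib and dexamethasone. The last pair did not overlap, by a narrow margin, and the one before it did. With pomalidomide and dexamethasone RRP7A had 7.67, 7.36 and 7.23, against 7.71, 7.38 and 7.43 with dexamethasone, and these overlapped. The median over 12 arrays was 7.32 with pomalidomide (6.87 to 7.67) and 7.62 without it (7.38 to 7.88). The average difference was -0.29 ± 0.07 (SE), 0.815-fold, with an adjusted p of 0.0122 (limma). This call held when any single array was left out, with adjusted p up to 0.029 (limma). The largest share came from the setting with no other drug, -0.67, against -0.16, -0.09 and -0.26 beside filanesib, dexamethasone and both. RRP7BP, whose sequence is nearly the same as that of RRP7A, differed by -0.20 ± 0.08 with an adjusted p of 0.176 (limma). How far the probes of the pair tell the transcripts apart was not tested, so the assignment to RRP7A is uncertain.

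MRTO4 was lowest relative to its counterpart where filanesib was present. It had log2 levels of 6.71, 6.59 and 6.78 with filanesib and pomalidomide, against 7.41, 6.82 and 7.30 with filanesib. It had 6.72, 6.92 and 6.45 with the triple combination, against 7.17, 7.03 and 6.95 with filanesib and dexamethasone. Neither pair overlapped. With pomalidomide alone it had 6.98, 6.60 and 6.42, against 6.97, 6.72 and 6.75 in controls. With pomalidomide and dexamethasone it had 6.57, 6.70 and 6.75, against 6.72, 6.92 and 6.85 with dexamethasone. Both of these pairs overlapped. The average difference was -0.28 ± 0.08 (SE), 0.821-fold, with an adjusted p of 0.0286 (limma), and by setting it was -0.15 with no other drug, -0.48 beside filanesib, -0.15 beside dexamethasone and -0.36 beside both. Leaving out control replicate 1, filanesib replicate 1 or 3, dexamethasone replicate 2, filanesib with dexamethasone replicate 1, pomalidomide with dexamethasone replicate 1 or triple replicate 3 ended the call, with differences of -0.33 to -0.25 over all omissions and adjusted p up to 0.0638 (limma).

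At an unadjusted p under 0.05, 10 of the 37 genes were lower and none higher, while 9.9% of all genes were lower and 7.38% higher. Besides the 2 called, these included RRP12, which takes part in maturation and export of the small subunit in yeast, at -0.23 ± 0.09, WDR12 at -0.16 ± 0.07, NOP2 at -0.17 ± 0.08, POLR1F at -0.16 ± 0.07, NOLC1 at -0.14 ± 0.06 and BOP1 at -0.13 ± 0.06. The medians by role ran from -0.13 for large subunit factors to -0.08 for nucleolar proteins with several tasks, with -0.05 for the genes caught by name only. The largest difference of opposite sign was 0.04, for NOL4. MYC, which is no member, differed by -0.13 ± 0.06 with an adjusted p of 0.288 (limma).

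By setting, the median was -0.27 for pomalidomide alone against control (2 positive), -0.08 beside filanesib (14 positive), -0.00 beside dexamethasone (18 positive) and -0.06 beside both (8 positive). Over the 3 settings other than pomalidomide alone the median was -0.06, with 25 of 37 negative, against -0.00 and 49.1% positive over all genes. All 16 DNA replication genes measured fell with pomalidomide on average, with a median of -0.41. CD68, listed among macrophage markers but with a mean level of 9.49 here, rose by 0.99, while the other 5 macrophage markers averaged 2.67 to 4.37 and none of them passed the test. The part of either in the values of the 37 genes was not tested.

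Averaged over its 4 settings, dexamethasone gave no call among the 37 genes (limma), and among all named genes none was called higher and 0.0134% lower. At an unadjusted p under 0.05, 3 of the 37 were higher and none lower, beside 3.59% and 4.08% of all genes. The 3 were NOL12, a large subunit factor, at 0.16 ± 0.06 with an adjusted p of 0.584 (limma), BOP1 at 0.13 ± 0.06 and MYBBP1A at 0.13 ± 0.06. Of the 37 differences 29 were positive with a median of 0.07, and the largest of opposite sign was -0.10, for NOL4L-DT. The median was -0.00 with 49.6% positive over all genes, and 0.01 with 54.1% over the genes at or above the median level. That of the 37 was 0.02 without pomalidomide replicate 3. By setting, the median of the 37 was -0.07 with no other drug, 0.04 beside filanesib, 0.23 beside pomalidomide and 0.05 beside both. Over the 3 settings that do not use the pomalidomide-alone arrays the median was -0.00, with 18 positive and 19 negative, against -0.01 and 46.2% positive over all genes.

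**Figure D4:**
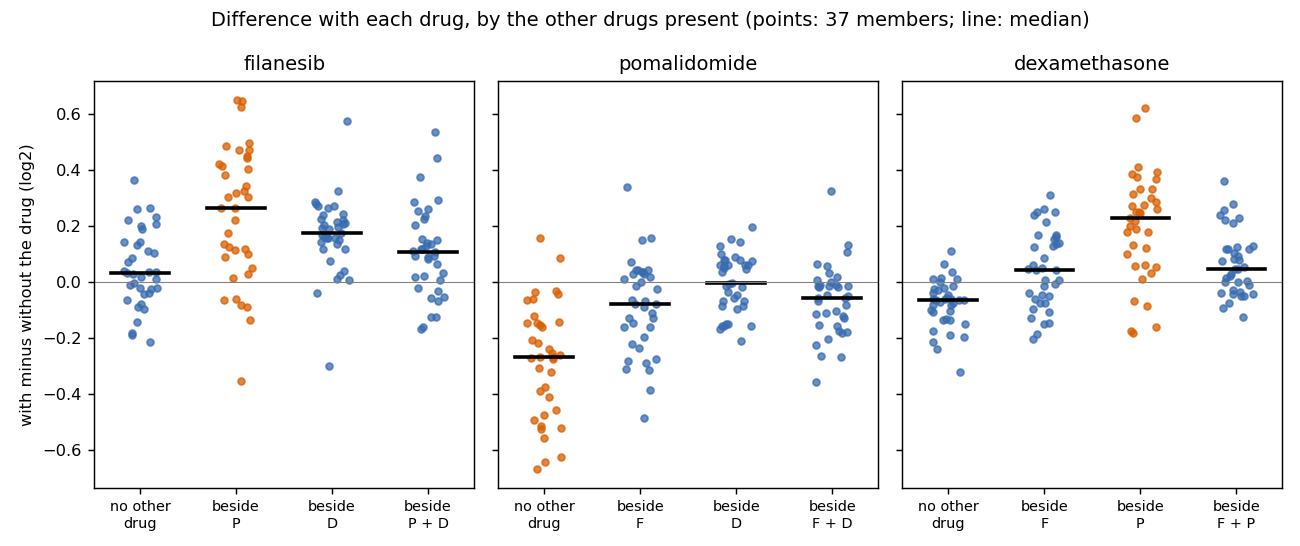
Log2 difference with minus without each drug for the 37 genes (points), by the other drugs present (F filanesib, P pomalidomide, D dexamethasone); lines are medians. Orange marks differences that use the pomalidomide-alone arrays, whose medians are 0.26, -0.27 and 0.23; the other medians lie between -0.08 and 0.17.

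Among the 7 treatments set against control, member genes passed the test only with pomalidomide alone, where BOP1, RRP7A, NOP53 and NOL6 fell. Lower calls made up 1.47% of all named genes in that comparison and higher calls 0.504%. The median of the 37 was -0.27, with 35 negative, against -0.02 for all genes and -0.11 for genes at or above the median level.

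BOP1 had log2 levels of 6.96, 7.25 and 6.86 with pomalidomide alone, against 7.89, 7.52 and 7.59 in controls. The groups did not overlap, and these 3 arrays held the lowest BOP1 levels of the series. The difference was -0.64 ± 0.12, with an adjusted p of 0.0074 (limma). NOL6, a small subunit factor, had 7.12, 7.26 and 6.69 with pomalidomide alone, against 7.72, 7.30 and 7.62 in controls. The nearest arrays of the 2 groups were 7.26 and 7.30, and the difference was -0.52 ± 0.13 with an adjusted p of 0.0410 (limma). NOP53, a large subunit factor that in yeast brings the RNA exosome to the precursor, had 7.58, 8.12 and 8.10 with pomalidomide alone, against 8.64, 8.50 and 8.54 in controls. Here the lowest array was replicate 1, not replicate 3, and the difference was -0.62 ± 0.14 with an adjusted p of 0.0285 (limma). For RRP7A the difference was -0.67 ± 0.14 with an adjusted p of 0.0151 (limma). MYBBP1A had 7.56, 8.10 and 7.54 with pomalidomide alone, against 8.26, 8.11 and 8.19 in controls, a difference of -0.46 ± 0.12 that did not pass, with an adjusted p of 0.0538 (limma). MYC fell by 0.51 ± 0.13 in this comparison, with an adjusted p of 0.0404 (limma).

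Of the 37 genes 8 had all pomalidomide arrays below all controls, as did 9.06% of all genes, and none had them above, as did 6.57%. With an unadjusted p under 0.05, 16 were lower and none higher, beside 11% and 5.54% of all genes. The low levels were not shared by all members. NCL had 7.70, 7.27 and 6.61 with pomalidomide alone, against 7.69, 7.31 and 7.38 in controls. WDR43 had 7.81, 7.43 and 6.72, against 7.63, 7.60 and 7.16. NOP58 had 10.14, 9.70 and 8.98, against 9.99, 9.87 and 9.75. In each of these genes replicate 3 alone was well under the controls. Replicate 1 was above all controls for WDR43 and NOP58 and level with the highest control for NCL. Replicate 2 was narrowly below all controls for NCL and NOP58. POLR1H was one of the 2 genes with a positive difference, 0.16, with 6.16, 5.67 and 5.73 against 5.75, 5.79 and 5.55.

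Without pomalidomide replicate 3 the median against control was -0.10, 13 of 37 differences were positive, and BOP1 and NOP53 were the 2 members called, among 122 genes in all as against 294 with all arrays. Leaving out replicates 1 and 3 leaves 1 pomalidomide array, assumed to vary like the other groups, so the loss of calls there says nothing about stability. None of the 37 was then called, and BOP1 was at -0.42 and RRP7A at -0.55. The BOP1 call was also lost without control replicate 1, that of NOP53 without control replicate 1 or 3 or pomalidomide replicate 1, and that of RRP7A without control replicate 1 or 3 or pomalidomide replicate 3. NOL6 lost its call in 10 of the 24 omissions, among them both control replicates 1 and 3 and pomalidomide replicate 3, and also without filanesib replicate 1, dexamethasone replicate 2, filanesib with dexamethasone replicate 2 or 3, filanesib with pomalidomide replicate 3, pomalidomide with dexamethasone replicate 3 or triple replicate 2. The highest adjusted p over the omissions was 0.0695 for BOP1, 0.117 for NOP53, 0.0905 for RRP7A and 0.191 for NOL6 (limma). A fit of the 6 arrays of these 2 groups alone called none of the 4 genes, with adjusted p of 0.325 for BOP1, 0.268 for RRP7A, 0.368 for NOP53 and 0.478 for NOL6 (limma), and with array weights BOP1 alone was called. DNA replication genes had medians of -0.59, -0.47 and -0.83 relative to control in replicates 1, 2 and 3. In this comparison 12 of 16 passed the test as lower. With replicate 3 left out 3 passed, but all 16 were still negative, with a median of -0.52. Their part in the values of the 37 genes was not tested.

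In the other 6 treatments no member passed against control (limma). The smallest p belonged to MRTO4 with filanesib alone (difference 0.36, adjusted p = 0.999), to RRP7A with pomalidomide and dexamethasone (adjusted p = 0.552), to NOP53 with filanesib and dexamethasone (difference -0.38, adjusted p = 0.719), and to NOL4L-DT with dexamethasone alone, with filanesib and pomalidomide (adjusted p = 0.624) and with the triple combination (adjusted p = 0.338). None of all named genes passed with filanesib or with filanesib and dexamethasone, and 0.00672% did with dexamethasone, 0.141% with filanesib and pomalidomide, 0.161% with pomalidomide and dexamethasone and 0.255% with the triple combination. At an unadjusted p under 0.05 the 37 genes gave 3 with the triple combination, 2 with filanesib and dexamethasone and 1 in each of the other 4. All genes gave 10.6% with the triple combination, 8.3% with pomalidomide and dexamethasone, 7.6% with filanesib and pomalidomide, 6.03% with filanesib and dexamethasone, 3.9% with dexamethasone and 3.94% with filanesib. None of these shares of the 37 stood above the background. The median difference from control was 0.02 with the triple combination, -0.07 with pomalidomide and dexamethasone, -0.00 with filanesib and pomalidomide, 0.11 with filanesib and dexamethasone, -0.07 with dexamethasone and 0.03 with filanesib. All 7 comparisons share the 3 control arrays, of which replicate 1 was the highest for these genes, with a median of 0.11 above the control mean.

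Filanesib added to pomalidomide was compared with pomalidomide alone, and BOP1 and NOL6 rose. Higher calls made up 0.255% of all named genes and lower calls 0.101%. BOP1 had log2 levels of 7.62, 7.78 and 7.62 with filanesib and pomalidomide, against 6.96, 7.25 and 6.86 with pomalidomide alone, a difference of 0.65 ± 0.12 with an adjusted p of 0.0191 (limma). NOL6 had 7.60, 7.78 and 7.63, against 7.12, 7.26 and 6.69, a difference of 0.65 ± 0.13 with an adjusted p of 0.0296 (limma). Neither gene overlapped between the groups. The median of the 37 was 0.26 with 31 positive, against 0.02 and 53.5% over all genes and 0.10 and 68.5% over the genes at or above the median level. In all, 10 of the 37 were entirely higher and 1 entirely lower, beside 8.28% and 5.29% of all genes. By unadjusted p under 0.05, 17 were higher and 1 lower, beside 8.9% and 4.4% of all genes. POLR1H was -0.35 ± 0.13 with an adjusted p of 0.242 (limma), and its levels were 5.54, 5.48 and 5.48, against 6.16, 5.67 and 5.73. The comparison uses the same pomalidomide-alone arrays as the one above, so the 2 are not separate evidence. Leaving out pomalidomide replicate 3, or any array of filanesib with pomalidomide, ended both calls, with adjusted p up to 0.0973 for BOP1 and 0.119 for NOL6 (limma), as did further quantile normalisation, with 0.061 for BOP1 and 0.0579 for NOL6, and array weights, with 0.13 and 0.178. Without pomalidomide replicate 3 the median of the 37 was 0.06, as against 0.26 with all arrays.

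The comparison the study's design text points to is what filanesib adds to pomalidomide and dexamethasone. No member passed the test between the triple combination and pomalidomide with dexamethasone (limma), where 0.00672% of all named genes were called higher and none lower. At an unadjusted p under 0.05, 2 of the 37 were higher, WDR43 and LYAR, and none lower, beside 3.19% and 4.1% of all genes. The median of the 37 was 0.11, with 28 positive, against -0.01 and 46.4% over all genes.

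WDR43, a small subunit factor that also links to transcription by RNA polymerase I, had log2 levels of 7.52, 7.94 and 7.61 with the triple combination, against 7.23, 7.12 and 7.41 with pomalidomide and dexamethasone. The difference was 0.44 ± 0.20, with an adjusted p of 0.624 (limma). LYAR differed by 0.53 ± 0.24, with an adjusted p of 0.641 (limma). DDX21 had 9.36, 9.44 and 9.54, against 8.89, 9.14 and 9.18, a difference of 0.37 ± 0.19. In these 3 genes every array of the triple combination lay above every array of pomalidomide with dexamethasone. NOLC1 had 8.79, 8.90 and 8.85, against 8.42, 8.64 and 8.73, a difference of 0.25 ± 0.13. RRP1B had 8.03, 8.09 and 8.24, against 7.74, 7.94 and 7.82, a difference of 0.29 ± 0.16, and NOP58 had 9.93, 10.21 and 10.12, against 9.85, 9.75 and 9.79, a difference of 0.29 ± 0.18. The groups did not overlap for any of these 6 genes. In all, 7 of the 37 were entirely higher and 1 entirely lower, beside 7.22% and 8.53% of all genes. BOP1 overlapped here, with 7.69, 7.70 and 7.77, against 7.46, 7.65 and 7.72.

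Filanesib added to dexamethasone gave no call among the 37 either (limma), with 0.0202% of all named genes called higher and none lower. Most differences were small and shared a direction: 35 of 37 were positive with a median of 0.17, against 51.8% positive over all genes. They ran from -0.30 for NOP53 to 0.58 for LYAR. In all, 14 of the 37 had all arrays with filanesib and dexamethasone above all arrays with dexamethasone, as did 7.06% of all genes. Of the 37, 3 were higher and 1 lower at an unadjusted p under 0.05, beside 3.43% and 2.3% of all genes. DDX21 had 9.60, 9.35 and 9.38 with filanesib and dexamethasone, against 9.08, 9.18 and 9.24 with dexamethasone. FBL had 9.94, 10.02 and 9.98, against 9.78, 9.78 and 9.78. NOP14, a small subunit factor, had 8.28, 8.27 and 8.30, against 8.05, 8.10 and 8.14. None of the 3 overlapped. The smallest p was that of LYAR, with a difference of 0.58 ± 0.24 and an adjusted p of 0.81 (limma). The 1 gene that was entirely lower, as were 4.66% of all genes, was NOP53, with 8.15, 8.20 and 8.18, against 8.22, 8.48 and 8.73, a difference of -0.30.

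For the other 6 additions of a drug no member passed (limma), and between none and 0.249% of all named genes did. Dexamethasone added to pomalidomide, where 0.00672% of all genes were called, had a median of 0.23 with 9 of the 37 at an unadjusted p under 0.05, beside 9.56% of all genes. BOP1 had the smallest adjusted p there, 0.111 (limma), and the median was 0.02 without pomalidomide replicate 3. Pomalidomide added to filanesib, where 0.249% of all genes were called, had a median of -0.08 with 5 of the 37 at an unadjusted p under 0.05, beside 10.7% of all genes, and MRTO4 was at -0.48 with an adjusted p of 0.198 (limma). Pomalidomide added to filanesib and dexamethasone had 3 of the 37 at that threshold, beside 6.33% of all genes, and 0.0269% called. Pomalidomide added to dexamethasone had none of the 37, beside 5.54%, and also 0.0269% called. Dexamethasone added to filanesib or to filanesib and pomalidomide had none of the 37, beside 5.39% and 4.71%.

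Whether the drugs' effects depended on each other was tested by the 3 interactions, each averaged over the third drug. No gene of the array passed in any of them (limma). At an unadjusted p under 0.05 the 37 genes gave 5 for filanesib by pomalidomide, 1 for filanesib by dexamethasone and 3 for pomalidomide by dexamethasone, where all genes gave 3.67% higher and 3.02% lower, 1.68% and 2.66%, and 3.49% and 2.02%. The medians were 0.06, -0.04 and 0.15, and the last had 35 of 37 positive against 56.5% of all genes and 66.9% of genes at or above the median level. Without pomalidomide replicate 3 the first median was -0.03 with 15 positive and the second 0.08 with 27 positive, both of the opposite sign to before, and the third 0.03 with 25 positive. NOP53 had the smallest p in all 3, with an interaction of 0.50 ± 0.14 and an adjusted p of 0.743 (limma) for pomalidomide by dexamethasone. These interactions thus did not show, for any single gene, that the effect of a drug depended on another. Averaging over the third drug dilutes a difference confined to a single setting, and the interaction of all 3 drugs was not tested.

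Other genes of the pathway were counted from fixed lists. Of 108 further ribosome assembly factors 82 were measured. With filanesib on average 76 of them were positive with a median of 0.12, beside 49.2% of all genes and 59.8% of genes at or above the median level, and 2 rose, beside 1.25% of all genes: NVL, an ATPase of large subunit assembly, by 0.35 ± 0.08 with an adjusted p of 0.0192, and the exosome subunit EXOSC2, by 0.28 ± 0.07 with an adjusted p of 0.0398 (limma). Both calls were also made without pomalidomide replicate 3, where the median was 0.08 with 73 positive. With pomalidomide on average none passed, 11 were lower and none higher at an unadjusted p under 0.05, beside 9.9% and 7.38% of all genes, and the median was -0.08. Without that array the median was -0.03, and NHP2 was called lower. With pomalidomide alone against control 3 fell, beside 1.47% of all genes called lower: the small subunit factor PWP2 by 0.72 ± 0.13 with an adjusted p of 0.00649, the helicase DDX56 by 0.51 ± 0.11 with an adjusted p of 0.0195, and the large subunit factor NLE1 by 0.59 ± 0.15 with an adjusted p of 0.0404 (limma). The list's median in that comparison was -0.20, and by array it was -0.03, -0.05 and -0.40 in replicates 1, 2 and 3. Without replicate 3 it was -0.04 with 38 positive, and PWP2, DDX56 and DDX51 were called lower but not NLE1. Of 16 genes listed for RNA polymerase I transcription, further subunits among them, 5 were measured. None passed in these 3 comparisons, with medians of 0.10, -0.02 and -0.18. In pomalidomide replicates 1, 2 and 3 their median was -0.04, 0.15 and -0.49, and without replicate 3 the medians of the 3 comparisons were 0.10, 0.04 and -0.10. TOP1, a DNA topoisomerase on this list and neither a subunit nor a factor of RNA polymerase I alone, was then called higher with pomalidomide on average.

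The 56 ribosomal protein genes encode the proteins that these factors assemble. Their median was 0.00 with filanesib, -0.01 with pomalidomide and -0.01 with pomalidomide alone against control. RPL39L, a paralog with restricted expression, rose by 0.53 ± 0.08 with filanesib (limma, adjusted p = 0.000715). RPS26 fell by 0.44 ± 0.09 and RPL36AL by 0.29 ± 0.05 with pomalidomide, with adjusted p of 0.00487 and 0.00207 (limma). Ribosomal protein genes have many near-identical pseudogene copies, so single values are uncertain. The 5 RNA polymerase III subunits measured had medians of 0.14, -0.12 and -0.17 in the same 3 comparisons. The 4 genes with POLR2 symbols, subunits of RNA polymerase II, had 0.02, -0.19 and -0.20. Among those of RNA polymerase III POLR3G rose by 0.31 ± 0.07 with filanesib and fell by 0.32 ± 0.07 with pomalidomide, with adjusted p of 0.0372 and 0.0122 (limma). POLR3E fell by 0.50 ± 0.12 with pomalidomide alone against control, with an adjusted p of 0.0353 (limma). It was not called there without pomalidomide replicate 3. Among the POLR2 genes POLR2H, whose product is shared by RNA polymerases I, II and III, fell by 0.23 ± 0.06 with pomalidomide (limma, adjusted p = 0.0303). The small nucleolar RNAs that lie in introns of member genes were named by no probe set used here.

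A second probe set was available for 2 members. For BOP1 it gave differences of 0.17, -0.12 and 0.15 for filanesib, pomalidomide and dexamethasone, against 0.22, -0.13 and 0.13 on the probe set used. For NOL10, a small subunit factor, it had a mean level of 3.17 and gave 0.03, -0.11 and -0.08, against 0.19, -0.08 and 0.09.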

How the data were processed

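The authors deposited log2 values for the probe sets of 24 arrays. Per the submitters' processing notes these come from RMA and Affymetrix Expression Console, whose versions are not given in the sources used here. RMA corrects background, normalises by quantiles and summarises probes. Of 53617 probe sets, 16098 had 1 gene symbol and 37519 had none and were left out. The probe set with the highest mean stood for each gene, which left 14884 genes. All 24 arrays entered 1 linear model with group means in limma 3.58.1 in R 4.3.3 (16 residual degrees of freedom, eBayes, two-sided, Benjamini-Hochberg over all genes within each comparison, threshold 0.05), after the script was tested on simulated data. Values of ± are standard errors of limma's fit unless SD is written. Array number limits the precision: the median standard error was 0.14 for 3 arrays against 3 and 0.07 for 12 against 12. Groups that do not overlap have all arrays of one above all of the other.

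The members, gene lists and comparisons were chosen with earlier results of these data known, and the roles were assigned with the values known. Named genes were those past the threshold, the smallest p where none passed (6 for the triple combination), the largest of opposite sign in each average, a set list of well-known members and, per fixed list, up to 3 past the threshold; NOP14, NOP10, NOL8, NOL10 and others given by range were named after their values were seen. Alternatives were further quantile normalisation, median centring, omission of dim genes, array weights, another prior, the replicate block, the mean of probe sets, no small RNA genes, fits of 2 groups and omission of each array.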

Additional observations from a re-analysis of the deposited data

How the results depend on the processing

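The call of RRP7A with pomalidomide on average was kept under every alternative run, with adjusted p up to 0.0467 (limma), and that of MRTO4 under all but the 7 single omissions named above. Members called for filanesib on average were 1 as reported, 0 after further quantile normalisation, where LYAR had an adjusted p of 0.0796, and 2 with each array centred on its median or dim genes omitted, where BOP1 joined at 0.0382 and 0.039. Calls against control summed to 4 as reported, 2 after further quantile normalisation, 1 with array weights, and 0 both in fits of the 2 groups compared, which hold fewer arrays, and without pomalidomide replicates 1 and 3 (chosen after seeing the data). The last leaves 1 pomalidomide array with its spread taken from the other groups, so its 0 shows little about these genes. Calls over the 8 other additions were 2 as reported and 0 after further quantile normalisation and without those 2 arrays. Array weights gave 2 calls there, but of other genes in other comparisons, LYAR with filanesib added to dexamethasone and MRTO4 with pomalidomide added to filanesib. Leaving out single arrays gave 0 to 3 members for filanesib, 1 to 4 for pomalidomide, 0 for dexamethasone, the triple combination and the interactions, 0 to 9 against control and 0 to 11 over the other additions, the highest of the last 2 without pomalidomide replicate 2. Calls over all named genes also varied, from 130 to 318 for filanesib and 512 to 879 for pomalidomide on average. They ran from 23 to 828 for pomalidomide alone against control and 0 to 511 for filanesib added to pomalidomide. The causes were not tested.

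Small differences that passed no test changed sign. For the triple combination against pomalidomide with dexamethasone, MRTO4 was -0.010 after further quantile normalisation, RRP7A 0.0046 with centring and 0.055 with array weights, and MYBBP1A -0.015 with array weights. With array weights RRP12 was -0.0044 for filanesib and -0.014 for dexamethasone, and NOL6 0.0037 for pomalidomide. Without pomalidomide replicates 1 and 3 RRP12 was -0.041 for filanesib and -0.074 for dexamethasone, NOL6 0.014 for pomalidomide, and NOP2 -0.0021, LYAR -0.0058 and RRP7A -0.013 for dexamethasone.

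Deviations of same-numbered arrays correlated over 0.1 in 17 of 84 pairs, and those of differently numbered arrays in 41 of 168. Only 2 of 24 arrays correlated best with their own number. These values show no pairing by replicate number, but they cannot exclude one in the design. With the number as a block the calls were 1 for filanesib, 2 for pomalidomide, 0 for dexamethasone, 3 against control, where NOL6 had an adjusted p of 0.054 (limma), and 2 over the other additions.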
